A study of Rattus norvegicus with 6 samples.

Results

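The BiP cycle of the endoplasmic reticulum (ER) was followed through 10 genes: Hspa5, Hyou1, Sil1, Dnajb9, Dnajb11, Dnajc1, Dnajc3, Dnajc10, Sec63 and Sdf2l1. They were taken by symbol, as the rows of the gene table named for the chaperone BiP and its known cochaperones. The rule uses no measured value, but the list was drawn up with earlier results of these data known. They were 10 of 32900 features, and all 10 were among the 15579 genes with a mean normalized count of at least 5 over the 6 libraries that entered the tests.

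BiP, the product of Hspa5, is the Hsp70 chaperone of the ER lumen. J proteins hand it unfolded clients and trigger its ATPase, after which it holds the client tightly, and nucleotide exchange factors release ADP so that the client is let go for another round of folding. In pancreatic beta cells the main client load is proinsulin and the other secretory granule proteins. BiP also binds the stress sensors of the unfolded protein response (UPR), whose transcription factors in turn act on many genes of the cycle.

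The libraries came from INS-1(832/13)::mCherry, a beta-cell line from a rat insulinoma that carries a human INS transgene with neomycin resistance and a mouse Ins2 C-peptide mCherry reporter, grown at 7.5 mM glucose. The 3 control lines (5-9, 2 and 16) carried a deletion of the imprinted Prader-Willi syndrome (PWS) domain on the silent maternal allele only. The 3 PWS lines (3, 19-1 and 19-4) carried it on both alleles. Each line gave 1 library. The other lines were isolated from line 5-9 after a second transfection, with a control vector for lines 2 and 16 and with the editing vector for the PWS lines, while 19-1 and 19-4 are sister subclones of one clone (line 19), and the PWS group thus holds 2 independent clones. Line 3 has a larger deletion than line 19 at the proximal end of its second allele. Differences are therefore differences between clonal lines, and the spread within the PWS group is in part a spread between sister subclones.

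The 7 genes Hspa5, Hyou1, Dnajb9, Dnajb11, Dnajc3, Dnajc10 and Sdf2l1 had all 3 PWS lines below all 3 control lines, against 9.01% of all genes tested, and none of the 10 was higher without overlap, as were 8.43% of all genes. Sdf2l1 had the largest difference, with a PWS mean at 52.2% of the control mean, and Hspa5, Hyou1, Dnajb11 and Dnajc3 followed at 66.7% to 72.1%. Sil1, Dnajc1 and Sec63 overlapped between the groups, with PWS means at 90.4%, 91.8% and 99.2% of control. None of the 10 genes passed an adjusted p of 0.05 in limma, which called 0.25% of all genes lower and 0.00642% higher. At an unadjusted p under 0.05, limma had 7 of the 10 lower and none higher, where 5.35% of all genes were lower and 6% higher. The calls differed between tests: DESeq2 on the recovered reads called Hspa5, Hyou1, Dnajb11, Dnajc3 and Sdf2l1 lower, 5 of 10 against 0.783% of all genes, and none higher, against 0.68%, while edgeR called none of the 10, against 0.199%, with 6 lower at an unadjusted p under 0.05, against 5.24%. In DESeq2, 7 were lower at an unadjusted p under 0.05, against 5.01%. The DESeq2 calls count the sister subclones 19-1 and 19-4 as separate lines, and DESeq2 was not run with them averaged. All 10 had a lower PWS mean, as did 50.7% of all genes, and their median log2 fold change (PWS minus control) was -0.38, beside -0.0028 over all genes tested. As each library came from a whole culture, fewer cells of a kind and less RNA per cell cannot be told apart.

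Each library held 26016478 to 36084261 assignments of reads to genes, in which a read assigned to several features counts for each, and 17530149 to 23022637 reads assigned to a single feature. Snurf and Snrpn, which lie in the deleted domain and share reads, checked the labels: the mean of Snurf was 3688 ± 459 normalized counts (SD, n = 3) for control and 1.89 ± 1.82 for PWS. All 10 beta-cell markers were detected in every line. Their summed level was 514938 to 582703 normalized counts in control lines and 274584 to 483839 in PWS lines, most of it Ins1 and Iapp, and the part of this in the BiP cycle values was not tested. Gcg, the glucagon gene of alpha cells, was at 0 to 19.0 normalized counts across the control lines and 13.2 to 100.01 across the PWS lines, highest in line 19-4, and its part in the BiP cycle values was not tested. Irx2, Sst, Prss1, Ptf1a and Ptprc were at 0 in every line.

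The proximal promoters of the 7 genes that were lower in every PWS line, and that of Sec63, which was not, are shown because UPR transcription factors act on genes of this cycle through short promoter elements. Those of Sil1 and Dnajc1, which also overlapped between the groups, are not written out. The sequences are those of RefSeq on build GRCr8, from 250 bases before to 50 bases after the annotated start site, written on the gene's strand. The counts were made on another annotation, Ensembl release 98, whose start sites may differ, so these windows need not be the promoters of the counted transcripts. Capitals mark CCAAT, the box bound by the factor NF-Y, and CCACG, the part of the ER stress response element (ERSE) bound by ATF6 or XBP1, each in either orientation. The Hspa5 promoter lies at chr3:38452766-38453065 on the plus strand, that of Hyou1 (the first of 2 annotated starts) at chr8:53602632-53602931 plus, Dnajb11 at chr11:91672751-91673050 minus, Dnajc3 at chr15:102432417-102432716 plus, Sdf2l1 at chr11:97376628-97376927 plus, Dnajb9 at chr6:67002002-67002301 minus, Dnajc10 at chr3:85639339-85639638 plus, and Sec63 at chr20:47827041-47827340 plus.
Hspa5: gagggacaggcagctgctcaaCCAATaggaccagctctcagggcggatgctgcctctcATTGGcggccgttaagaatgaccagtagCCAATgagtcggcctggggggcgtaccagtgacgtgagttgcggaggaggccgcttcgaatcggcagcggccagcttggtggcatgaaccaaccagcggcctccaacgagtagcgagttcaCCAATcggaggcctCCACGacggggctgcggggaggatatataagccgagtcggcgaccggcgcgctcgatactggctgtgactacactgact
Hyou1: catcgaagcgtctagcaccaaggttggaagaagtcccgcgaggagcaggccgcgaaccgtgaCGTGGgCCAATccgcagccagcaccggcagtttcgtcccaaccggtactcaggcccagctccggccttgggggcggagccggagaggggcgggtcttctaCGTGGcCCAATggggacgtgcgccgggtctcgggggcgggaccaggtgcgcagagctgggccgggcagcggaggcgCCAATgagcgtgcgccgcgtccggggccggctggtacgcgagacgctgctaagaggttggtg
Dnajb11: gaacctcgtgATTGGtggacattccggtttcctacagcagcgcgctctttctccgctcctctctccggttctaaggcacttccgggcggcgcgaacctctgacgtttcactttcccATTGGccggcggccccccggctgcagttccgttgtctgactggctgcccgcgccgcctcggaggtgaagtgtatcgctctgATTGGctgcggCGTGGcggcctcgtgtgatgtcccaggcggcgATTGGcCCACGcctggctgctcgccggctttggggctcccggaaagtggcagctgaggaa
Dnajc3: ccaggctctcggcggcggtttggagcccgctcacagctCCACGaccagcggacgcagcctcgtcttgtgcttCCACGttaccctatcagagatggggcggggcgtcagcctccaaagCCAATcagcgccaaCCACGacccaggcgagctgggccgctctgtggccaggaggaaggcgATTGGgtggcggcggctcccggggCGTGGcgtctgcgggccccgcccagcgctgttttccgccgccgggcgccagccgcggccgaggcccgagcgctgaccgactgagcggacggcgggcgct
Sdf2l1: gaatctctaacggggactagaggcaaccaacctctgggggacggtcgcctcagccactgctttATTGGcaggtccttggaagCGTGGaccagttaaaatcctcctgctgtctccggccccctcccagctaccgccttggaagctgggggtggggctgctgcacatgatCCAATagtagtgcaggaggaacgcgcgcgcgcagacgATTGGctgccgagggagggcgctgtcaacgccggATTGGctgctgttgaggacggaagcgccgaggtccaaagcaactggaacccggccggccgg
Dnajb9: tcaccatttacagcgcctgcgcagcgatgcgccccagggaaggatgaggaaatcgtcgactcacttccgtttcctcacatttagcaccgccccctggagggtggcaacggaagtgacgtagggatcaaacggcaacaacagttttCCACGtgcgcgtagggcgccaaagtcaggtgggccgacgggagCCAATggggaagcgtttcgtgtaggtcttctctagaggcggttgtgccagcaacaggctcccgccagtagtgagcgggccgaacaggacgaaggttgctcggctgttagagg
Dnajc10: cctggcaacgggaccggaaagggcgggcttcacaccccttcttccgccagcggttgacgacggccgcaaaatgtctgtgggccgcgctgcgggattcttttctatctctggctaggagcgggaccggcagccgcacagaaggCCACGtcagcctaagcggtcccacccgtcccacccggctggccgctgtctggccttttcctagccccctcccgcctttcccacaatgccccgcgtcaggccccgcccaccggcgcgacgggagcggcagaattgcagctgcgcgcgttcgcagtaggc
Sec63: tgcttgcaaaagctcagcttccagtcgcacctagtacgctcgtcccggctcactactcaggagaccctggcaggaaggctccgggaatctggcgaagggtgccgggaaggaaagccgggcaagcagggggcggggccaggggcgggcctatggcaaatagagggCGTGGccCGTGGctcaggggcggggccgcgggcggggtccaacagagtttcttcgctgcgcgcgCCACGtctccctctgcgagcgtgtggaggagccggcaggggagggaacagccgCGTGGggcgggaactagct

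The complete ERSE, CCAAT and CCACG on the same strand with 9 bases of any kind between them, was found in 22 of 33469 RefSeq promoters of this length (0.0657%), and 2 of the 10 genes were among them. Hspa5 held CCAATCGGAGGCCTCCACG beginning 43 bases before its start, and Dnajc3 held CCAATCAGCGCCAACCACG beginning 133 bases before. The shorter ERSE-II, the inverted box ATTGG and CCACG with 1 base between them, was found in 17 promoters (0.0508%), which included Hyou1 with 2 copies at 188 and 88 bases before the start and Dnajb11 with ATTGGCCCACG at 10 bases. Both strands were searched, and each of these elements contains a CCAAT box and a CCACG, so the counts overlap. The core of the UPR element, TGACGTG, stood in 1.81% of promoters and in those of Hspa5, Hyou1 and Dnajc10. CCAAT alone was found in 37.5% of promoters and in 7 of the 10 genes, which are not the same 7 that were lower without overlap. Sil1, which overlapped between the groups, held CCAAT, and Dnajc10, which was lower without overlap, did not. At least 4 copies were found in 0.675% of promoters, among them Hspa5, Dnajb11 and Sdf2l1. CCACG alone was found in 31.6% of promoters and in all 10 genes. Sec63, Dnajc1 and Dnajc10 held no CCAAT in this window, and Sdf2l1, Dnajb9 and Dnajc10, which were also lower without overlap, held neither complete element. The motifs were chosen with the expression values known, and a match describes letters in a window, not a bound site.

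**Figure D1:**
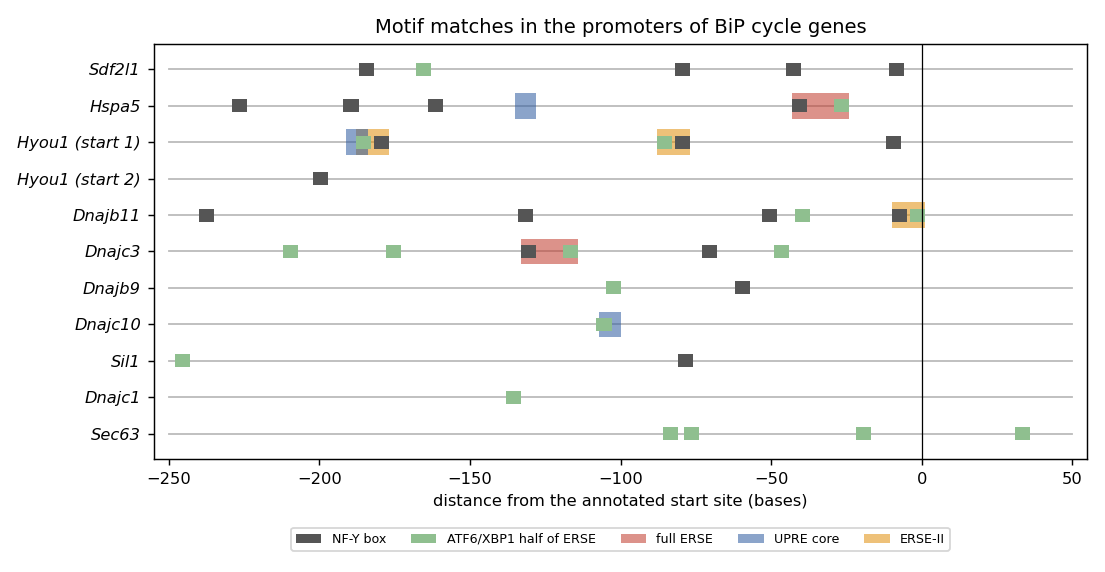
Motif matches in the RefSeq promoters of the 10 genes (11 promoters, as Hyou1 has 2 annotated starts), by distance in bases from the start site; genes are ordered by their log2 fold change, lowest at the top. Tall bars are complete elements and short bars are the CCAAT box and the CCACG part; the complete ERSE is seen in Hspa5 and Dnajc3, and ERSE-II in Hyou1 and Dnajb11.

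Hspa5 (ENSRNOG00000018294) encodes BiP itself. Control lines 5-9, 2 and 16 stood at 59385, 70665 and 72342 normalized counts, and PWS lines 3, 19-1 and 19-4 at 54201, 40807 and 40088. The groups did not overlap, but line 3 stood close to the parental control line 5-9, and the sister subclones 19-1 and 19-4 were well below both. The means were 67464 ± 7046 and 45032 ± 7949 (SD, n = 3 each). In limma the log2 fold change was -0.59 ± 0.14 (SE), with a 95% interval of -0.91 to -0.27 and an adjusted p of 0.265. DESeq2 gave an adjusted p of 0.00335 for the same gene. Between 34126 and 76983 reads per line stood behind these values, so counting error (a coefficient of variation, CV, of 0.419%) was small beside the spread between lines, with a CV of 10.4% in control and 17.7% in PWS lines.

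Of the nucleotide exchange factors of BiP, Hyou1 (ENSRNOG00000010944) encodes GRP170, a large Hsp70-like protein that exchanges nucleotide on BiP and also holds unfolded clients. In control lines 5-9, 2 and 16 the normalized counts were 14473, 16149 and 18003, and in PWS lines 3, 19-1 and 19-4 they were 13107, 10820 and 9485. The order of the lines was the same as for Hspa5, with no overlap between groups. The log2 fold change was -0.55 ± 0.13 (SE), with a 95% interval of -0.84 to -0.25, and its adjusted p was 0.265 in limma and 0.00769 in DESeq2. Sil1 (ENSRNOG00000019826) encodes the smaller exchange factor, whose loss causes Marinesco-Sjögren syndrome. Control lines 5-9, 2 and 16 stood at 482, 415 and 651 normalized counts, and PWS lines 3, 19-1 and 19-4 at 515, 474 and 412. The groups overlapped, since control line 2 and PWS line 19-4 were nearly equal and only control line 16 stood apart. The log2 fold change of Sil1 was -0.13 ± 0.17 (SE), with a 95% interval of -0.51 to 0.26 and an adjusted p of 0.826 in limma. Without control line 16 it was 0.055, so the sign rested on that line. At 396 to 634 reads per line, Sil1 was also the member with the largest counting error, a CV of 4.51%. Its CV between lines was larger, at 23.6% in control and 11.1% in PWS lines.

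Among the J proteins of the ER lumen, Dnajb11 (ERdj3, ENSRNOG00000001803) is an abundant soluble cochaperone that brings unfolded clients to BiP and can be secreted with them. In control lines 5-9, 2 and 16 the normalized counts were 6138, 6061 and 7083, and in PWS lines 3, 19-1 and 19-4 they were 5238, 4217 and 4256. No PWS line reached a control line, and the subclones of line 19 were again the lowest. Dnajb11 had a log2 fold change of -0.50 ± 0.10 (SE), with a 95% interval of -0.73 to -0.26, an adjusted p of 0.238 in limma and one of 0.00506 in DESeq2. Dnajc3 (ENSRNOG00000010352) encodes p58IPK (ERdj6), whose loss causes diabetes in mouse and human. Control lines 5-9, 2 and 16 stood at 3466, 3352 and 4272 normalized counts, and PWS lines 3, 19-1 and 19-4 at 3021, 2534 and 2444. The groups were separate here too, with line 3 nearest to control. The log2 fold change of Dnajc3 was -0.47 ± 0.12 (SE), with a 95% interval of -0.73 to -0.20, an adjusted p of 0.277 in limma and one of 0.0229 in DESeq2.

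The other luminal J proteins had smaller differences that passed neither test. Dnajb9 (ERdj4, ENSRNOG00000004006) binds misfolded clients bound for degradation and recruits BiP to the sensor IRE1. In control lines 5-9, 2 and 16 the normalized counts were 976, 1052 and 1264, and in PWS lines 3, 19-1 and 19-4 they were 952, 921 and 820. The groups did not overlap, but control line 5-9 and PWS line 3 were within 2.14% of the control mean of each other. The log2 fold change was -0.28 ± 0.11 (SE), with a 95% interval of -0.54 to -0.03, an adjusted p of 0.407 in limma and one of 0.351 in DESeq2. Dnajc10 (ERdj5, ENSRNOG00000006803) is a disulfide reductase that works with BiP in ER-associated degradation. Control lines 5-9, 2 and 16 stood at 5036, 5179 and 5268 normalized counts, and PWS lines 3, 19-1 and 19-4 at 4657, 4654 and 4735. This gene had the tightest groups of the 10, with CVs of 2.27% and 0.979% beside a counting CV of 1.42%. Its means differed by 9.28% of the control mean, with a log2 fold change of -0.14 ± 0.06 (SE), an adjusted p of 0.428 in limma and one of 0.465 in DESeq2. Line 3 and the subclones of line 19 lay together for Dnajc10, unlike for Hspa5.

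The J proteins of the ER membrane overlapped between the groups. Sec63 (ERdj2, ENSRNOG00000000314) ties BiP to the Sec61 channel, through which new secretory proteins enter the ER. In control lines 5-9, 2 and 16 the normalized counts were 4416, 4020 and 5078, and in PWS lines 3, 19-1 and 19-4 they were 4304, 4612 and 4491. All 3 PWS lines lay inside the control range. The log2 fold change of Sec63 was -0.01 ± 0.09 (SE), with a 95% interval of -0.21 to 0.20 and an adjusted p of 0.989 in limma. Dnajc1 (ERdj1, ENSRNOG00000000150) is a membrane J protein that also contacts the ribosome. Control lines 5-9, 2 and 16 stood at 593, 469 and 706 normalized counts, and PWS lines 3, 19-1 and 19-4 at 537, 536 and 551. The PWS lines were nearly equal and again inside the control range. Its log2 fold change was -0.10 ± 0.14 (SE), with a 95% interval of -0.43 to 0.22 and an adjusted p of 0.830 in limma. Leaving out control line 16 turned the sign of both, to 0.085 for Sec63 and 0.037 for Dnajc1, and leaving out PWS line 3 turned that of Sec63, to 0.02.

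Sdf2l1 (ENSRNOG00000001859) is the partner of ERdj3 in the ER lumen, where it keeps BiP clients from aggregating, and it is a textbook target of the UPR. In control lines 5-9, 2 and 16 the normalized counts were 1999, 2422 and 2694, and in PWS lines 3, 19-1 and 19-4 they were 1579, 1087 and 1051. Every PWS line was below every control line, and 19-1 and 19-4 were at 45.8% and 44.3% of the control mean, while line 3 was at 66.6%. The means were 2372 ± 350 and 1239 ± 295 (SD, n = 3 each). The log2 fold change of Sdf2l1 was -0.95 ± 0.17 (SE), with a 95% interval of -1.34 to -0.56, and 1.14% of all genes tested had a lower one. The adjusted p was 0.129 in limma, 0.158 in edgeR and 1.8e-05 in DESeq2. Without PWS line 3 the log2 fold change was -1.14 and limma's adjusted p was 0.0177, but the PWS group then held only sister subclones of 1 clone, whose spread is not that between independent clones. With these subclones averaged and line 3 kept, the log2 fold change was -0.86 and the adjusted p 0.485 in limma.

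**Figure D2:**
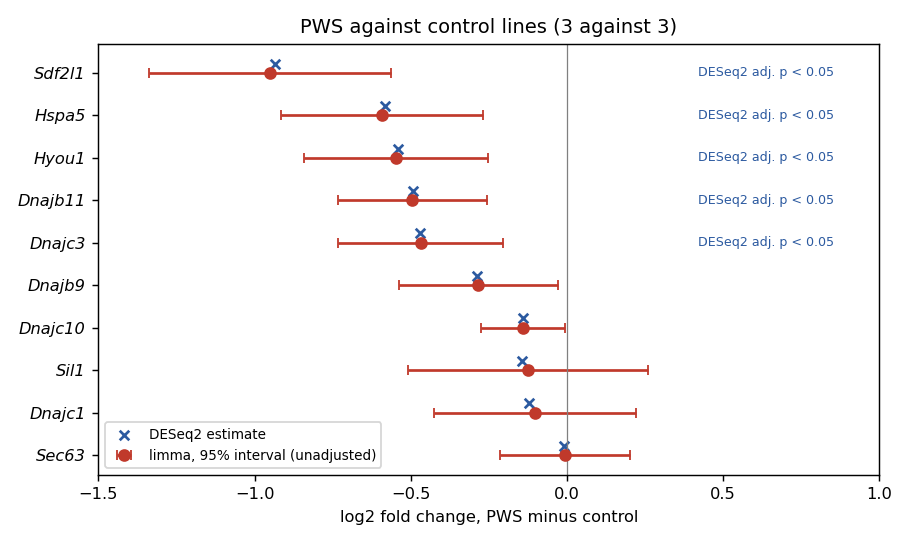
Log2 fold change (PWS minus control, 3 lines against 3) of each of the 10 genes; circles and bars are limma estimates with unadjusted 95% intervals, and crosses are DESeq2 estimates. All 10 estimates lie below 0, from -0.95 for Sdf2l1 to -0.01 for Sec63; no gene passed limma's adjusted p of 0.05, and the 5 marked genes passed that of DESeq2.

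Seen by line, the 10 genes also varied within the groups. All 10 were at their highest in control line 16, where 14.6% of all genes tested were at their highest. This is the line with reduced expression of the human INS transgene, and the part of that in the BiP cycle values was not tested. Line 19-4 was the lowest line for 6 of the 10, beside 20.3% of all genes. Line 19-1 and control line 2 were the lowest for 2 each, beside 19.2% and 23.4% of all genes. The median level of the 10 genes, in percent of each gene's control mean, was 93.6% in line 5-9, 95.1% in line 2 and 113% in line 16. It was 84.3% in PWS line 3, 76.2% in line 19-1 and 70.5% in line 19-4. Over all genes tested the same median lay between 99.2% and 99.8% in every line. For Hspa5, Hyou1, Dnajb11, Dnajc3 and Sdf2l1, line 3 was between the control lines and the subclones of line 19 in each case. With lines 19-1 and 19-4 averaged into 1 value, the log2 fold changes were -0.52 for Hspa5, -0.48 for Hyou1, -0.44 for Dnajb11, -0.42 for Dnajc3 and -0.86 for Sdf2l1, none past limma's threshold.

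**Figure D3:**
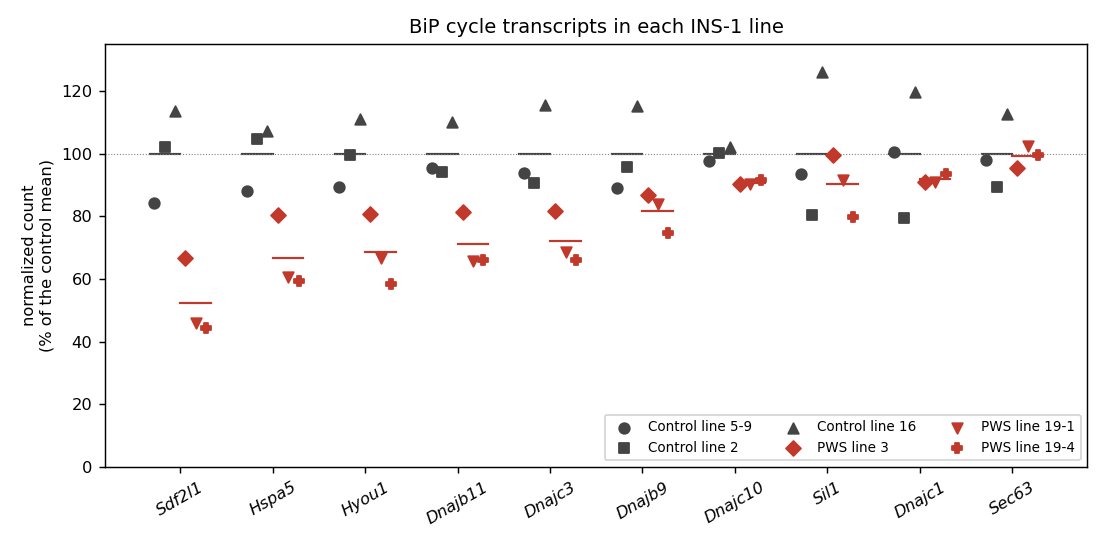
Normalized count of each of the 10 genes in each line, in percent of the gene's mean over the control lines (grey, 3 lines; red, PWS, 3 lines; short bars are group means). Control line 16 is the highest line for all 10 genes, and the red points lie below all grey points for 7 genes, with line 3 nearest to the control lines for most of them.

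The cochaperone transcripts were next set against Hspa5 in the same line, to see whether the members differed between the groups by the same amount as the chaperone. Counts were not divided by transcript length, so these ratios compare lines and not genes. Hyou1, Dnajb11 and Dnajc3 had the smallest differences from Hspa5: per 100 normalized counts of Hspa5, Hyou1 had 24.0 ± 1.06 (SD, n = 3) in control lines and 24.8 ± 1.52 in PWS lines. Dnajb11 had 9.57 ± 0.900 and 10.2 ± 0.489 per 100, and Dnajc3 had 5.49 ± 0.651 and 5.96 ± 0.339. The log2 ratios of these 3 genes differed by 0.04, 0.10 and 0.12, with p = 0.6, 0.5 and 0.4 in a two-sided exact permutation test (0.6, 0.562 and 0.514 adjusted over 9 ratios). Without control line 2, which had the lowest control ratio for all 3, the differences were 0.0076, 0.020 and 0.020.

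Since Hspa5 itself was lower in the PWS lines, most genes were higher relative to it: over the 15578 other genes tested the median log2 ratio difference was 0.59, and 67.2% were higher without overlap. Sec63, Dnajc10, Sil1 and Dnajb9, 4 of the 9 cochaperones, were among those higher without overlap, a share below that of all genes. Sec63 per 100 counts of Hspa5 was 7.44, 5.69 and 7.02 in control lines 5-9, 2 and 16, and 7.94, 11.3 and 11.2 in PWS lines 3, 19-1 and 19-4. Line 3 was just above the control range, and the subclones of line 19 were far above it. The log2 ratio was higher by 0.59 for Sec63, 0.45 for Dnajc10, 0.47 for Sil1 and 0.31 for Dnajb9. Without control line 2 that of Sil1 was 0.29. Sdf2l1 was the reverse, with 3.37, 3.43 and 3.72 per 100 in control lines and 2.91, 2.66 and 2.62 in PWS lines, a log2 difference of -0.36 without overlap, where 0.417% of all other genes were lower without overlap. Each of these 5 ratios had an exact permutation p of 0.1, the smallest that 3 lines against 3 can give, or 0.18 adjusted over the 9 ratios, so the design could not pass 0.05. Dnajc1 overlapped, with a log2 difference of 0.49 and an exact p of 0.2 (0.3 adjusted), and was at 0.30 without control line 2. Of the summed normalized counts of the 10 genes, Hspa5 made up 61.2% to 64.4% in control lines and 57.7% to 61.5% in PWS lines, which overlapped.

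**Figure D4:**
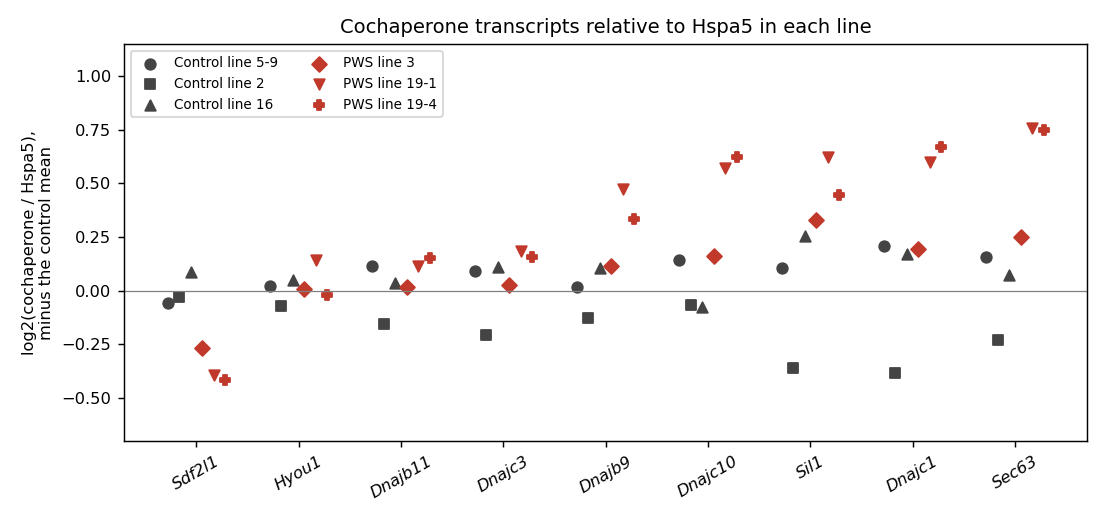
Log2 ratio of each cochaperone to Hspa5 in each line, minus the mean over the 3 control lines (grey, control; red, PWS). For Hyou1, Dnajb11 and Dnajc3 the grey and red points overlap, Sdf2l1 lies lower in the 3 PWS lines, and Sec63, Dnajc10, Sil1 and Dnajb9 lie higher there, as do 67.2% of all other genes, since Hspa5 is lower in these lines (at 60.5% and 59.4% of the control mean in lines 19-1 and 19-4).

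The genes whose pattern over the 6 lines was closest to that of Hspa5 were found by the root mean square difference of log2 profiles centred on their means, over 15578 other genes. Among genes with a symbol they were Oat (0.057), a mitochondrial aminotransferase of ornithine, Hyou1 (0.066), Creld2 (0.069), an ER protein with disulfide isomerase activity, Gucy2c (0.071), the receptor guanylate cyclase known from the intestine, and Apold1 (0.090), for which only 20 to 44 reads per line were counted. The median over all genes was 0.373. Of the BiP cycle, Dnajb11 ranked 9 and Dnajc3 32, Sdf2l1 207 and Dnajb9 248. Dnajc10, Sil1, Dnajc1 and Sec63 ranked 1782, 3347, 5623 and 6671. The measure describes likeness in these 6 lines, which share a parent.

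Other regulators and partners of BiP formed a list of 12 genes, of which 11 were tested. None passed in limma or edgeR, but 5 were lower and 1 higher at an unadjusted p under 0.05 in each (over all genes, 5.35% lower and 6% higher in limma, 5.24% and 6.14% in edgeR), and DESeq2 called 1 gene lower, Creld2, against 0.783% of all genes. At an unadjusted p under 0.05 DESeq2 also had 5 lower and 1 higher, against 5.01% and 5.38%. The list's median log2 fold change was -0.24, with 10 of 11 lower on average, and 3 genes were lower without overlap, against 9.01% of all genes. The normalized counts of Creld2 were 5611, 6255 and 6807 in lines 5-9, 2 and 16, and 4943, 3342 and 3656 in lines 3, 19-1 and 19-4, so that line 3 was again the highest PWS line. Its log2 fold change was -0.66 ± 0.14 (SE), with an adjusted p of 0.250 in limma and 0.00304 in DESeq2. Hsp90b1 (GRP94), the Hsp90 chaperone that takes clients over from BiP, was at 78671 ± 13387 normalized counts in control lines and 57793 ± 6556 in PWS lines (SD, n = 3), a log2 fold change of -0.44. Manf, which binds BiP and slows its nucleotide exchange, was at -0.42. Neither of them passed, with DESeq2 adjusted p values of 0.0567 and 0.0750. Ficd, the enzyme that switches BiP off by AMPylation, was at -0.17, Sdf2 at -0.12 and Sec62 at -0.07, all overlapping. Tmem132a was the 1 tested gene of the list that was higher on average, at 0.29, and Cdnf was too low to be tested.

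The UPR sensors and transcription factors had differences of either sign. All 19 of the list were tested, none passed in limma, edgeR or DESeq2, and the median log2 fold change was 0.02, with 8 lower and 11 higher on average. At an unadjusted p under 0.05, limma and edgeR each had 2 lower and 4 higher, against the shares over all genes given above, and DESeq2 had 2 and 5, against 5.01% and 5.38%. Without overlap, 1 was lower and 3 were higher, against 9.01% and 8.43%. The sensor genes Atf6 and Ern1, which encodes IRE1, were higher in the PWS lines without overlap, with log2 fold changes of 0.19 ± 0.07 and 0.31 ± 0.09 (SE) and adjusted p values of 0.369 and 0.285 in limma. Eif2ak3, which encodes the sensor PERK, was at -0.11 and overlapped. Of the transcription factors, Xbp1 was at -0.08, Atf4 at -0.02 and Ddit3 (CHOP) at -0.08, and all 3 overlapped. The lowest value of the list was -0.40 for Herpud1, a factor of ER-associated degradation, and the highest was 0.42 for Mbtps2, the site-2 protease that releases ATF6 from the membrane. These are transcript levels; splicing of Xbp1 and phosphorylation of the sensors were not measured here.

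The remaining lists set the BiP cycle beside its neighbours in the ER membrane and in other compartments. Of the Sec61 channel and its partners, 11 of 13 genes were tested and 10 were lower on average, and the median of the list was -0.14 (log2 fold change), ranging from -0.39 for Sec61b to 0.15 for Sec61a2. None passed in limma, edgeR or DESeq2, 3 had an unadjusted p under 0.05 in limma, all lower (5.35% of all genes), and 3 did not overlap, all lower (9.01% of all genes). The other J proteins of the ER membrane (6 of 6 tested) had a median of -0.06, from -0.18 for Dnajc25 to 0.37 for Dnajb14. Of the cytosolic and mitochondrial Hsp70 cycle, 31 of 33 genes were tested, and the median was -0.05, from -0.33 for Dnajb5 to 0.28 for Dnajb4. Hspa8, the constitutive cytosolic Hsp70, was at -0.06 ± 0.08 (SE), and Hspa9, its mitochondrial counterpart, at 0.09 ± 0.09, both overlapping. No gene of these 2 lists passed in limma, edgeR or DESeq2. At an unadjusted p under 0.05 in limma, the J proteins had 1 higher gene and the Hsp70 cycle had 3 lower and 1 higher, against 5.35% lower and 6% higher over all genes. Without overlap, the J proteins had 1 lower gene and the Hsp70 cycle had 6 lower and 2 higher, against 9.01% and 8.43%.

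**Figure D5:**
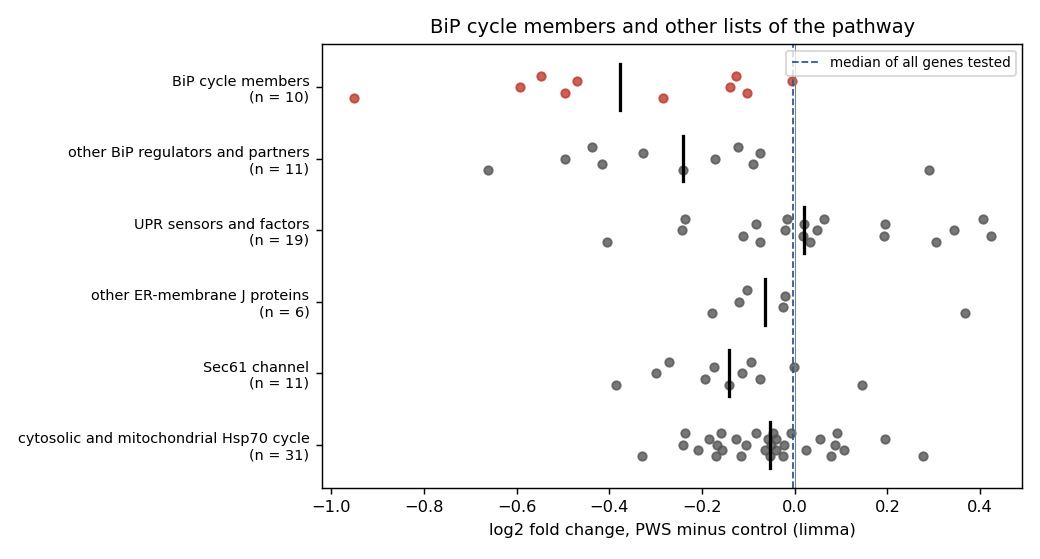
Log2 fold change (PWS minus control, limma) of every tested gene of the BiP cycle (red) and of 5 other lists (grey); black bars are list medians and the dashed line is the median of all genes tested. The BiP cycle has a median of -0.38 and the other BiP regulators -0.24, while the UPR sensors and factors spread to both sides of 0 around 0.02.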

How the data were processed

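RNA-seq libraries (rRNA-depleted, stranded, 75-bp paired-end) were trimmed with cutadapt, aligned with STAR 2.7.0e to the rat genome of Ensembl release 98 plus transgene sequences, and HTSeq 0.11.2 was used by the authors for counting. The deposited values are normalized counts, that is, a signal: reads per gene, with multiply assigned reads counted for every feature, divided by DESeq2 size factors. The tables also hold the authors' own fold changes and p-values, which were not used. In each column of HTSeq counts every value above 0 was a whole multiple (tolerance 0.001) of its smallest, so whole reads were recovered. The RSEM columns hold estimated counts.

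Genes averaging 5 or more were kept. The main test was limma 3.58.1 (lmFit, eBayes, trend on) after adding a pseudocount of 1 and taking log2, with Benjamini-Hochberg adjustment over all genes. Fold changes are on that scale and understate those of low genes. DESeq2 1.42.0 and edgeR 4.0.16 (quasi-likelihood), run on recovered reads, RSEM values, counts of unique reads only, other pseudocounts and filters, TMM scaling, a replicate block, averaged subclones and leaving out each line were alternatives. The fits were tested on simulated data. Named genes were the 10 members, the extremes and called genes of each list, fixed partners, and the 5 profiles nearest to Hspa5. The members and lists were chosen with earlier results of these data known. Replicates are separate clonal lines with 1 library each, so p-values measure the spread between lines. In the PWS group this is in part a spread between sister subclones, as lines 19-1 and 19-4 come from 1 clone. Counts were not divided by length, since no length table was used here, so they do not rank levels of different genes. Shares of summed counts, as given for Hspa5 and for Ins1 and Iapp, depend on transcript length and compare lines only. Intervals and counting CVs cover counting error or the fit only.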

Additional observations from a re-analysis of the deposited data

How the results depend on the processing

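Each log2 fold change of a BiP cycle gene was recomputed under 18 alternatives: 170 values kept their direction and their side of the threshold, 6 newly passed it and 4 changed sign. DESeq2 called 228 genes in all (limma 40, edgeR 32) and 5 of the 10 genes, at -0.58 for Hspa5, -0.54 for Hyou1, -0.49 for Dnajb11, -0.47 for Dnajc3 and -0.94 for Sdf2l1, and 1 gene among the other BiP regulators. The cause of the gap between the tools was not tested. The count over all genes was 12 with RSEM values, 9 with a mean of at least 50, where fewer genes were tested, and 16 with unique reads only, and none of the 10 genes passed in these.

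Leaving out 1 line gave 33 to 55 genes, 0 to 1 of the 10 members, 0 to 1 gene of the other BiP regulators, and 7 to 8 members without overlap, a count that leaving out a line cannot lower. Without control line 16 the values of Sil1, Dnajc1 and Sec63 turned to 0.055, 0.037 and 0.085. Without PWS line 3 that of Sec63 turned to 0.02, and Sdf2l1 passed at -1.14, with a PWS group of 2 sister subclones of 1 clone. The ranges without 1 line were -0.73 to -0.52 for Hspa5, -0.67 to -0.44 for Hyou1, -0.27 to 0.055 for Sil1, -0.36 to -0.18 for Dnajb9, -0.60 to -0.42 for Dnajb11, -0.26 to 0.037 for Dnajc1, -0.56 to -0.36 for Dnajc3, -0.16 to -0.13 for Dnajc10, -0.084 to 0.085 for Sec63 and -1.14 to -0.84 for Sdf2l1. Ratios to Hspa5 kept their direction in 89 recomputed values, and only that of Hyou1 turned to -0.0060 without PWS line 19-1, within its range of -0.0060 to 0.076. The sizes of the ratio differences moved more: without 1 line they were 0.020 to 0.15 for Dnajb11, 0.020 to 0.18 for Dnajc3, 0.29 to 0.59 for Sil1, 0.30 to 0.64 for Dnajc1, 0.22 to 0.40 for Dnajb9, 0.37 to 0.60 for Dnajc10, 0.47 to 0.75 for Sec63 and -0.41 to -0.31 for Sdf2l1.

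Lines with the same replicate number deviated together with correlations of 0.00345, 0.0467 and 0.00513, so the numbers do not pair them. A replicate block gave 36 genes and 0 of the 10 members, with Hspa5 at -0.59 (limma adjusted p = 0.274). Depth was no limit for the abundant members, but Sil1 and Dnajc1 had 396 to 687 reads per line.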
